A study of Mus musculus with 10 samples.

Results

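Neuropeptide precursor genes encode the secreted chains from which neurons cut their peptide transmitters. The 10 genes described here are Sst, Vip, Npy, Cck, Tac1, Penk, Pdyn, Cartpt, Nts and Gal, taken by symbol from the 24837 genes of a single-nucleus RNA sequencing matrix of mouse hippocampus. A neuropeptide is made as a longer precursor that enters dense-core granules, where prohormone convertases cut it and other enzymes trim and amidate its ends. The peptides act on G protein-coupled receptors, often at a distance from the release site. In the hippocampus several of them are textbook marks of inhibitory interneuron types, while cholecystokinin, enkephalin and dynorphin are also made in principal neurons.

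The animals were unstimulated C57B/6J mice of wild-type genotype, whose ages ran from 4 to 7 months. The labels list 10 hippocampus samples in 1 group, and the titles of 4 name an RNASET2 control. Frozen tissue was broken into nuclei, which were stained with the DNA dye 7AAD, sorted and put through 10x Genomics 3' droplet chemistry. The deposited matrix holds 15661 barcodes and 101300889 unique molecular identifiers (UMIs, each 1 captured transcript molecule). The barcodes carry 7 numbered suffixes, which the labels do not match to samples or animals. All nuclei were therefore treated as 1 sample without replicates and no difference was tested. The intervals given are 95% intervals for counting error only. Suffixes are set side by side as descriptions.

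After filters, 15342 nuclei remained. Median UMIs per barcode were 5477, 8052, 8176, 7605, 2822, 2413 and 1012 in suffixes 1 to 7, and 21 barcode sequences occurred under more than 1 suffix. Clusters were named from markers that include no precursor gene, and each name means nuclei like that type on those markers. The names were built while looking at precursor levels, so the levels by class are not independent of the naming. Inhibitory nuclei (1661) fell into Lhx6 nuclei of somatostatin type (344), Lhx6 nuclei of parvalbumin type (336), Adarb2 nuclei with Cnr1 or Calb2 (337), Adarb2 or Lamp5 nuclei of neurogliaform type (248) and Zic nuclei (396). Excitatory nuclei (8587) comprised CA1 (2674), CA2/CA3 (1088), dentate granule (2432) and subicular or cortical (1347) pyramidal types and 1046 without a subtype. Non-neuronal nuclei (3450) were mostly oligodendrocytes (2540).

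Suffix 1 stood apart from the others and against the tissue label. It held 677 of 764 neurons, called undivided here, that matched neither the inhibitory nor the excitatory division of the hippocampus. A neuronal cluster took this name only where suffix 1 held at least 0.75 of its nuclei. The share of suffix 1 among undivided neurons thus follows largely from that rule. A further 768 nuclei, 30 of them of suffix 1, were left unnamed. All 14 listed hypothalamic or basal forebrain markers had UMIs in the undivided neurons, at a summed level of 212 UMIs per 1000000 UMIs (CPM). The same list summed to between 34.5 and 77.3 CPM in the 5 inhibitory classes, with 4 to 10 of the 14 markers at 0, and to between 8.51 and 67.4 CPM in the excitatory classes, with 3 to 8 at 0. Suffix 1 also held 180 of the 396 Zic nuclei. Results are given with and without suffix 1 where it matters.

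The 5 prime ends of 4 precursor genes are shown because their transcripts mark the interneuron classes below (Sst, Npy, Vip) or came mostly from suffix 1 (Cartpt). Each is the 300 bases from 250 before to 50 after the RefSeq start on GRCm38.p6, read 5' to 3' on the gene's strand. The Sst window is chr16:23890795-23891094 on the minus strand, the Npy window chr6:49822460-49822759 on the plus strand, the Vip window chr10:5638968-5639267 on the plus strand and the Cartpt window chr13:99900634-99900933 on the minus strand. Capitals mark TGACGTCA, the palindromic cyclic AMP response element, and TATAAA, a core promoter box near many start sites, each searched on both strands.
Sst: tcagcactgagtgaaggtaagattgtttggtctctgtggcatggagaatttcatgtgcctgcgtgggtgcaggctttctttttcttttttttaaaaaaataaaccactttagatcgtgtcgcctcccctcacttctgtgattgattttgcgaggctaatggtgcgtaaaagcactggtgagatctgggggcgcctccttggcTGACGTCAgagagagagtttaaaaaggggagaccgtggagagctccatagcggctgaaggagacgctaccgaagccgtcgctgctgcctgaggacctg
Npy: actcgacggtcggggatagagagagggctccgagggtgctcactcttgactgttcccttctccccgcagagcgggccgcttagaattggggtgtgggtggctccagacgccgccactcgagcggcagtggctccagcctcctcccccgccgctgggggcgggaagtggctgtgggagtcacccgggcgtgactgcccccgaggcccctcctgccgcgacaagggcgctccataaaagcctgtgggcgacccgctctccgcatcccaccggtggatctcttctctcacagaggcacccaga
Vip: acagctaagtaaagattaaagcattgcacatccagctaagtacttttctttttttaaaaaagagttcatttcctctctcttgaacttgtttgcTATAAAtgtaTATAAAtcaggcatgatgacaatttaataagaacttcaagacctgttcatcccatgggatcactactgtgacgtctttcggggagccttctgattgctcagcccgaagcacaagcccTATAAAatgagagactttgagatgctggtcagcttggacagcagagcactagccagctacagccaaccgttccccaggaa
Cartpt: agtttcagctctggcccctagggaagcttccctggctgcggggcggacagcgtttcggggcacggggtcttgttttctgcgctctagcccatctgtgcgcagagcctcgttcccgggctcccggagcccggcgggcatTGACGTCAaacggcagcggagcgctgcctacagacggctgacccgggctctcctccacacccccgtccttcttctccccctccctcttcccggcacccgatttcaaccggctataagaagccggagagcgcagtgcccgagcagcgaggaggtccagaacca
TGACGTCA was found in Sst, with its first base at -48 from the start, and in Cartpt at -112. Of 32851 promoters of the same length, 1.79% hold it. TATAAA was found in Vip, at -157, -147 and -30, and in no other of the 9 precursor genes with a RefSeq window, against 13.6% of all promoters. The shorter letters TGACG, which overlap the palindrome, were present in 7 of the 9 genes and in 20.8% of all promoters. These matches describe letters only.

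Across all kept nuclei the precursor genes were unevenly counted. Cck gave 4752 UMIs and Sst 1608, Tac1 543, Penk 495, Npy 457, Nts 443, Vip 440, Cartpt 419, Gal 265 and Pdyn 137. Per 100 nuclei the 10 genes together gave 144 UMIs in suffix 1, against 44.2, 45.9, 49.8, 44.4 and 41.1 in suffixes 2 to 6 and 5.13 in suffix 7. The values of suffixes 2 to 6 lay close together although their median depths ran from 2413 to 8176 UMIs. Their make-up differed too. Suffix 6 had 1 non-neuronal nucleus of 2375 and suffix 5 had 246 of 2212, against 597, 512 and 718 in suffixes 2 to 4. These pooled values thus mix depth with make-up. A level in CPM can depend on the depth of the suffixes a class comes from. UMIs per 100 nuclei are given as well for part of the results.

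**Figure D1:**
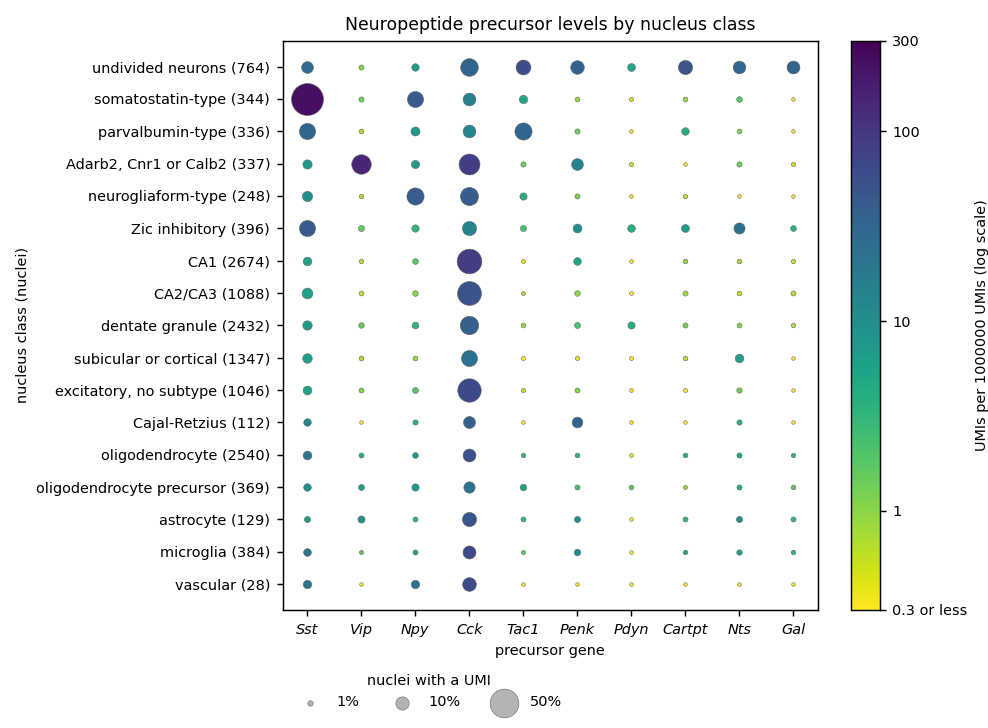
Levels of the 10 precursor genes (x axis) in each nucleus class (y axis, with its number of nuclei). Colour is CPM on a log scale and dot area the percent of nuclei with a UMI. Sst stands out in somatostatin-type nuclei (230.3 CPM), Vip in Adarb2 nuclei with Cnr1 or Calb2 (144.5 CPM), and Tac1, Cartpt, Nts and Gal in undivided neurons. Penk is alike in undivided neurons and in Cajal-Retzius nuclei, where it rests on 8 UMIs.

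The interneuron peptides were set apart from the principal neurons first. Of the 7 precursor genes with at least 100 UMIs over both sides, 6 were at least 2-fold higher in inhibitory than in excitatory nuclei, and none was at least 2-fold lower. Among all 13138 genes counted the same way, 7.79% passed that line upwards and 7.29% downwards. The median log2 ratio was 3.11 for the 7 precursor genes and 0.09 for all genes. The ratio was 26.7 for Vip (20.2 to 35.6), 16.1 for Tac1 (11.1 to 23.7), 10.3 for Sst (9.14 to 11.6) and 8.62 for Npy (6.88 to 10.8). Penk had a ratio of 2.47 (1.85 to 3.27) and Nts 4.24 (3.20 to 5.599). Cck went the other way, at 29.1 CPM in inhibitory and 55.1 CPM in excitatory nuclei, a ratio of 0.529 (0.474 to 0.589). The log2 ratio was above 0 in each of suffixes 1 to 6 for Sst (2.29 to 4.15), Vip (3.94 to 5.12), Npy (2.11 to 4.12), Tac1 (1.60 to 6.94) and Penk (0.53 to 2.36). For Cck it was below 0 in all 6 (-1.80 to -0.24). Some of these values rest on very few UMIs. Penk had 4 inhibitory UMIs in suffix 3 and 3 in suffix 6, and Tac1 had 1 excitatory UMI in each of suffixes 4 to 6. Nts rested on the Zic nuclei: without them its log2 ratio was -0.64, against 2.08 with them. It also rested on suffix 1, which held 79 of its 95 inhibitory UMIs: without suffix 1 the ratio was 1.18 (0.642 to 2.04), from 16 inhibitory and 76 excitatory UMIs. By suffix the Nts log2 ratio was 2.87 in suffix 1 and 1.07, 0.18, -0.74 and -0.04 in suffixes 2 to 5, and inhibitory nuclei of suffix 6 had no UMI. Pdyn, Cartpt and Gal had too few UMIs to be counted.

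Somatostatin (Sst, chr16:23889573-23890958 on the minus strand, GRCm38) is an inhibitory peptide of dendrite-targeting interneurons. In somatostatin-type nuclei it reached 230.3 CPM (211 to 251), against 27.5 CPM in the other inhibitory nuclei, a ratio of 8.39 (7.24 to 9.72). In that class 1.9% of 9514 genes were at least 2-fold higher. A UMI was seen in 61.9% of these nuclei (213 of 344, 56.6 to 67.1%, median depth 3916.5 UMIs), against 3.90% of oligodendrocytes (3.18 to 4.73%, median depth 1683 UMIs). Thinned to 1000 UMIs a nucleus, the shares were 25.3% and 2.40%. Below that class came Zic nuclei at 42.5 CPM (36.2 to 49.5), parvalbumin-type nuclei at 32.0 CPM (25.6 to 39.4) and undivided neurons at 28.5 CPM (24.4 to 33.2), whose intervals overlap their neighbours. Of the 162 Sst UMIs in Zic nuclei 142 lay in suffix 1, at 89.3 CPM, against 8.10, 6.86 and 11.7 CPM in suffixes 2 to 4. The 5 excitatory classes lay between 5.77 and 7.16 CPM, with overlapping intervals. Per 100 nuclei, somatostatin-type nuclei gave 154 Sst UMIs, all excitatory nuclei 4.83 and oligodendrocytes 3.98, although oligodendrocytes read 21.5 CPM.

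Within the somatostatin type 1 sub-cluster had the highest Sst level. It read 669.9 CPM over 86 nuclei, of which 41 carried suffix 5 and 43 suffix 6, against 204.9 and 158 CPM in the other sub-clusters of 179 and 79 nuclei. The share of nuclei with a UMI was alike in the 3, at 61.6, 58.1 and 70.9%. By suffix, Sst in somatostatin-type nuclei read 560.2 CPM in suffix 1 and 117, 135, 137, 471 and 533 CPM in suffixes 2 to 6. Per 100 nuclei the same values were 576 UMIs in suffix 1 and 118, 139, 180.5, 126 and 122 UMIs in suffixes 2 to 6. Thus suffixes 5 and 6 were high in CPM and not per nucleus, and suffix 1, with 17 nuclei, was high on both scales. A further 34 Zic nuclei, all of suffix 1, had Sst at 169 CPM with a UMI in 58.8% of them.

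Neuropeptide Y (Npy, chr6:49822710-49829507 on the plus strand) is a peptide of several interneuron types that dampens glutamate release. Its highest levels were 42.1 CPM (34.2 to 51.4) in somatostatin-type and 39.7 CPM (30.6 to 50.7) in neurogliaform-type nuclei, which do not differ beyond counting error. Against the other inhibitory nuclei the ratios were 3.90 (2.94 to 5.17) and 3.02 (2.22 to 4.09), where 1.9% and 2.79% of all genes were at least 2-fold higher. Parvalbumin-type nuclei had 7.26 CPM, undivided neurons 6.66 CPM and oligodendrocytes 7.03 CPM. Npy UMIs were seen in 15.1% of somatostatin-type nuclei and 17.3% of neurogliaform-type nuclei (median depth 5952.5 UMIs), against 1.26% of oligodendrocytes. Thinned, these were 3.78, 4.03 and 0.550%. By suffix, Npy in somatostatin-type nuclei read 211.5 CPM in suffix 1 (37 UMIs in 17 nuclei) and 13.6, 13.9, 26.0, 107 and 36.8 CPM in suffixes 2 to 6. Leaving out suffix 1 gave a log2 ratio of 1.57, against 1.96 with it.

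Vasoactive intestinal peptide (Vip, chr10:5639218-5647617 on the plus strand) marks interneurons that mainly contact other interneurons. Of its 440 UMIs, 302 lay in the 337 Adarb2 nuclei with Cnr1 or Calb2. The level there was 144.5 CPM (129 to 162), against 1.15 CPM in the other inhibitory nuclei, a ratio of 126 (71.2 to 247) where 2.04% of all genes were at least 2-fold higher. Vip UMIs were seen in 22.6% of these nuclei (median depth 3978 UMIs) and in 0.748% of oligodendrocytes, or 12.01% and 0.2501% after thinning. The 4 other inhibitory classes lay at 0.621 to 1.57 CPM, below the 4.05 CPM (2.44 to 6.32) of oligodendrocytes. By suffix Vip read 589 CPM in suffix 1, where 120 UMIs lay in 7 of 22 nuclei, and 60.2, 94.7, 134, 134 and 80.6 CPM in suffixes 2 to 6. Suffix 1 was above the rest. Zic nuclei, at 1.57 CPM of Vip, had no precursor gene at least 2-fold above the other inhibitory nuclei among the 5 counted, where 6.95% of all genes were. Nts, with 85 UMIs in Zic and 10 in the other inhibitory nuclei, was under the minimum of 100, at a ratio of 19.5 (10.1 to 42.1).

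Within this class Vip, Cck and Penk split by sub-cluster. A sub-cluster of 151 nuclei had Vip at 348 CPM, Penk at 38.9 CPM and Cck at 37.4 CPM. Another of 64 nuclei had Cck at 233 CPM, with a UMI in 73.4% of nuclei, Vip at 114 CPM and no Penk UMI. The remaining 75 and 47 nuclei had Vip at 3.81 and 2.71 CPM.

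**Figure D2:**
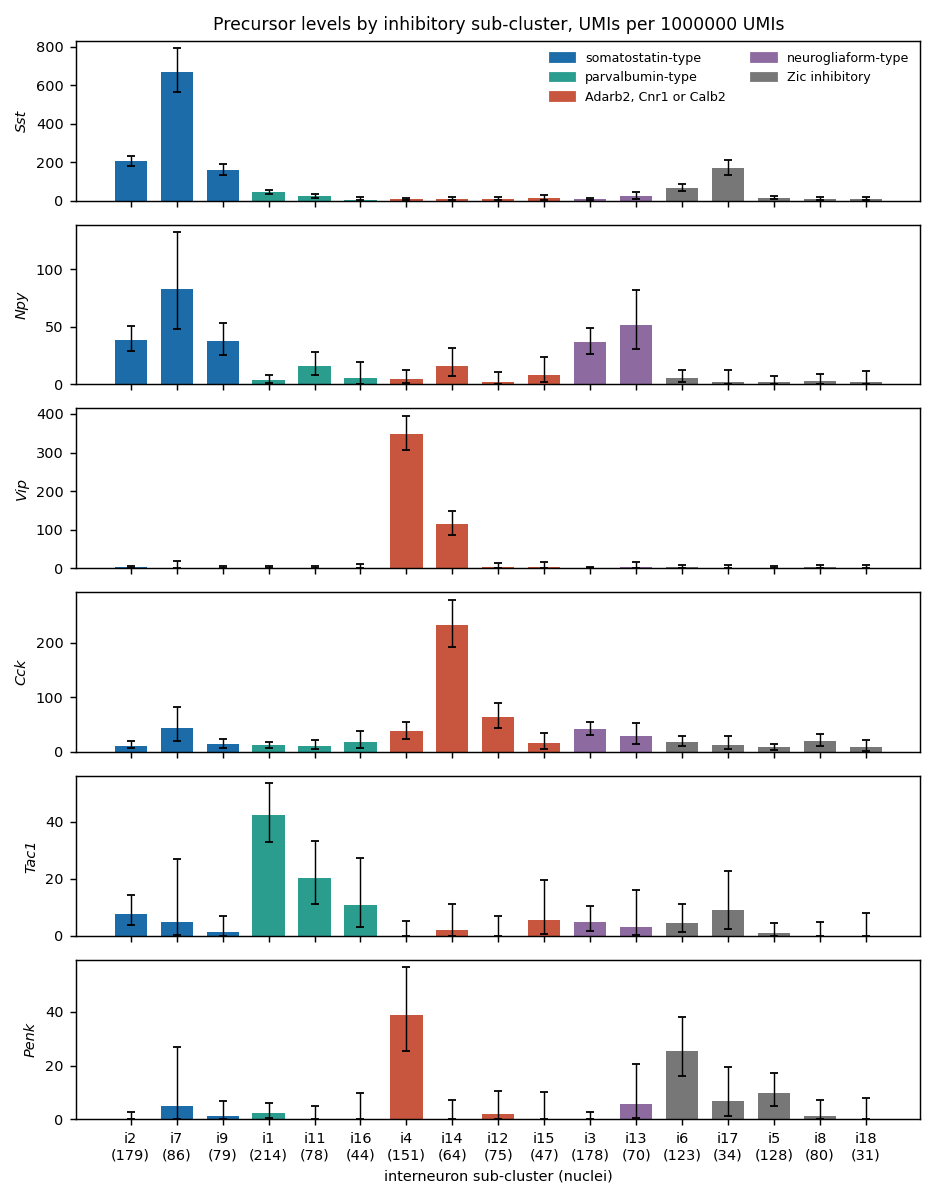
CPM of 6 precursor genes (rows, each with its own scale) in the inhibitory sub-clusters, with the number of nuclei under each. Bars are levels over all nuclei of a sub-cluster, lines the exact 95% Poisson interval, colours the class. Sst and Npy share the somatostatin-type sub-clusters, Vip and Penk share i4, and Cck is highest in i14.

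Tachykinin precursor 1 (Tac1, chr6:7554879-7565834 on the plus strand) gives substance P and neurokinin A. Among the hippocampal classes it was highest in parvalbumin-type nuclei, at 32.0 CPM (25.6 to 39.4), against 3.16 CPM in the other inhibitory nuclei, a ratio of 10.1 (6.65 to 15.8) where 3.37% of all genes were at least 2-fold higher. A UMI was seen in 17.3% of parvalbumin-type nuclei (median depth 6234 UMIs) and in 0.512% of oligodendrocytes, or 4.76% and 0.2501% after thinning. Somatostatin-type nuclei had 5.21 CPM and neurogliaform-type nuclei 4.35 CPM, with overlapping intervals, and the excitatory classes 0.276 to 0.910 CPM. By suffix Tac1 in parvalbumin-type nuclei read 29.0 CPM in suffix 1 and 29.9, 25.8, 23.4, 75.6 and 48.0 CPM in suffixes 2 to 6. Suffix 1 was within the range of the others in CPM. Per 100 nuclei it was the highest, at 53.3 Tac1 UMIs (8 UMIs in 15 nuclei), against 13.2 to 31.1 in suffixes 2 to 6. Its highest level of all was in undivided neurons, at 59.8 CPM.

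Cholecystokinin (Cck, chr9:121489824-121495694 on the minus strand) is made both by basket cells that carry the cannabinoid receptor Cnr1 and by pyramidal neurons. Among inhibitory and excitatory classes its highest levels were 87.8 CPM in CA1 (83.6 to 92.2) and 87.1 CPM in Adarb2 nuclei with Cnr1 or Calb2 (74.9 to 101). Excitatory nuclei without a subtype followed at 65.2 (59.5 to 71.4) and CA2/CA3 at 51.7 CPM. Then came neurogliaform-type nuclei at 39.1, dentate granule neurons at 38.2 and subicular or cortical neurons at 22.3 CPM. The Adarb2 nuclei were 4.96-fold above the other inhibitory nuclei (4.02 to 6.12). CA1 was 2.07-fold above the other excitatory nuclei (1.94 to 2.21), where 2.03% of all genes were at least 2-fold higher. Without suffix 1 the CA1 log2 ratio was 0.99, against 1.05 with it, which is below the 2-fold line.

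Cck was also seen in non-neuronal classes. Oligodendrocytes had 56.0 CPM (49.4 to 63.2) and microglia 66.4 CPM (47.2 to 90.7), above CA2/CA3 and dentate granule neurons on that scale. The class highest in Cck CPM also changed with the suffixes used. Without suffix 1 it was vascular cells, which had 3 Cck UMIs over all suffixes. With suffixes 2 to 4 only it was microglia. Per 100 nuclei CA1 gave 60.5 UMIs, CA2/CA3 62.3 and dentate granule neurons 25.9, against 10.4 in oligodendrocytes. Cck UMIs were seen in 36.8% of CA1 nuclei (median depth 3713 UMIs) and 9.45% of oligodendrocytes, and in 11.5% and 5.55% after thinning. In CA1, Cck read 255 CPM with a UMI in 84.4% of nuclei in suffix 1, against 38.2, 40.5, 48.8, 114 and 144 CPM and shares of 28.9 to 46.5% in suffixes 2 to 6. CA2/CA3 showed the same, with shares of 84.9% in suffix 1 and 20.9 to 38.3% in suffixes 2 to 6. In suffix 1 the great majority of CA1 and CA2/CA3 nuclei thus had Cck.

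Proenkephalin (Penk, chr4:4133531-4138819 on the minus strand) gives the enkephalins, which act on mu and delta opioid receptors. Its gene model overlaps A830012C17Rik on the other strand, and whether the counting used strand is not given in the sources used here. Penk was at 13.4 CPM (8.90 to 19.4) in Adarb2 nuclei with Cnr1 or Calb2 and 10.2 CPM (7.27 to 13.97) in Zic nuclei, and at most 1.45 CPM in the other 3 inhibitory classes. Of the 39 Penk UMIs in Zic nuclei 14 lay in 1 nucleus, and 12 lay outside suffix 1. In CA1 Penk was at 5.32 CPM (4.32 to 6.48), against 1.30 CPM in the other excitatory nuclei, a ratio of 4.09 (2.95 to 5.72). Cajal-Retzius nuclei, early-born Reelin cells of the outer layers, read 33.1 CPM (14.3 to 65.2) from 8 UMIs in 7 of 112 nuclei, and 5 of the 8 UMIs lay in the 14 nuclei of suffix 1. By suffix Penk in CA1 read 19.5 CPM in suffix 1 and 2.77, 1.06, 3.61, 6.50 and 5.33 CPM in suffixes 2 to 6. Oligodendrocytes of suffix 1 had 14.5 CPM of Penk. Per 100 nuclei, suffix 1 gave 20.2 Penk UMIs in CA1 and 2.15 in oligodendrocytes.

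Prodynorphin (Pdyn, chr2:129686565-129699844 on the minus strand) gives dynorphins, the ligands of the kappa opioid receptor, and is a known product of dentate granule neurons. Of its 137 UMIs, 64 lay in dentate granule neurons, at 3.88 CPM (2.99 to 4.96), against 0.141 CPM in the other excitatory nuclei, a ratio of 27.5 (12.6 to 71.3). Both sides together had 71 UMIs, under the minimum of 100. A UMI was seen in 2.38% of dentate granule neurons (median depth 6311 UMIs) and in 0.0787% of oligodendrocytes. After thinning, 0.249% of dentate granule neurons had one. By suffix Pdyn in dentate granule neurons read 4.04 CPM in suffix 1 and 2.76, 3.32, 4.96, 0 and 7.93 CPM in suffixes 2 to 6. The 0 of suffix 5 came from 57 nuclei, in which the floor of 3 UMIs would read 20.3 CPM. Undivided neurons had 5.12 CPM (3.46 to 7.31) and Zic nuclei 3.93 CPM (2.20 to 6.49), which overlap the dentate level. No nucleus had 5 or more Pdyn UMIs.

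Neurotensin (Nts, chr10:102481756-102490486 on the minus strand) is a peptide known from subicular and limbic projection neurons. Among excitatory classes it was highest in subicular or cortical neurons, at 6.35 CPM (4.94 to 8.04), against 0.886 CPM in the other excitatory nuclei, a ratio of 7.17 (4.90 to 10.6) where 4.55% of all genes were at least 2-fold higher. Nts UMIs were seen in 3.71% of these nuclei (median depth 5167 UMIs) and in 0.866% of oligodendrocytes, or 0.670% and 0.450% after thinning. Of the 3 subicular or cortical clusters 1 carried this level, at 10.3 CPM over 643 nuclei, while the other 2 were at 1.03 and 1.12 CPM. By suffix Nts read 50.9 CPM in suffix 1 (20 UMIs in 29 nuclei) and 4.74, 4.00, 4.52, 1.77 and 10.1 CPM in suffixes 2 to 6. Zic nuclei had 22.3 CPM (17.8 to 27.6), of which 78 of 85 UMIs came from suffix 1. A Zic sub-cluster of 123 nuclei, 122 of them in suffix 1, read 82.5 CPM.

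Npy gave the fourth class difference among excitatory nuclei. It was at 3.46 CPM (2.62 to 4.48) in dentate granule neurons, against 1.41 CPM in the other excitatory nuclei, a ratio of 2.45 (1.70 to 3.53) where 5.56% of all genes were at least 2-fold higher. Both levels are below the 7.03 CPM of oligodendrocytes. CA2/CA3 nuclei had no precursor gene at least 2-fold higher than the other excitatory nuclei, where 3.5% of all genes were. Of the 57 Npy UMIs in dentate granule neurons 33 lay in suffix 1, at 4.92 per 100 nuclei, against 0 to 1.83 in suffixes 2 to 6, and the ratio without suffix 1 was 1.35 (0.807 to 2.18). With suffix 1, 4 gene and class combinations passed the line among excitatory classes. Without it Npy, Penk and Nts had 90, 96 and 76 UMIs in excitatory nuclei, under the minimum of 100, so they were not counted. The uncounted ratios were 3.21 for Penk in CA1 (2.11 to 4.93) and 7.99 for Nts in subicular or cortical neurons (4.90 to 13.3). Cck in CA1 was counted and lay below the line, at a log2 ratio of 0.99.

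Most precursor genes were also lower in the interneuron classes that did not hold them. Of 5 counted genes in each class, 2 were at least 2-fold lower than in the other inhibitory nuclei in somatostatin-type nuclei (Vip and Cck), where 5.63% of all genes were, and 4 in parvalbumin-type nuclei (Sst, Vip, Npy and Cck), where 7.4% were. There were 3 in Adarb2 nuclei with Cnr1 or Calb2 (Sst, Npy and Tac1), against 5.98% of all genes, and 3 in neurogliaform-type nuclei (Sst, Vip and Tac1), against 8.64%. Zic nuclei had 4 (Vip, Npy, Cck and Tac1), against 7.04%. These counts follow in part from each gene being high in another class of the same comparison. Among excitatory classes, Nts was lower in CA1, where 7.19% of all genes were, and Npy, Penk and Nts were lower in CA2/CA3, where 7.55% were. Npy, Cck and Penk were lower in subicular or cortical neurons, where 5.97% were, and none of 5 counted was lower in dentate granule neurons, where 10.6% were. Without suffix 1 the ratio of Cck in somatostatin-type nuclei was 0.556 (0.378 to 0.796), short of the 2-fold line. So were Sst in parvalbumin-type nuclei at 0.544 (0.427 to 0.686) and Npy in CA2/CA3 at 0.66 (0.327 to 1.22). Sst in Zic nuclei then passed it, at 0.130 (0.0786 to 0.202). All other combinations named here stayed at least 2-fold lower. Tac1 in inhibitory and Npy, Penk and Nts in excitatory nuclei were then under the UMI minimum, so not counted.

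Cartpt (chr13:99898489-99901091 on the minus strand), the precursor of an anorexigenic peptide, and galanin (Gal, chr19:3409915-3414544 on the minus strand), an inhibitory peptide of hypothalamic and brainstem neurons, had few UMIs in hippocampal classes. Cartpt lay at 6.55 CPM (4.24 to 9.67) in Zic nuclei, 4.00 CPM in parvalbumin-type nuclei and at most 1.27 CPM in the other inhibitory and excitatory classes. Gal lay at 3.67 CPM (2.01 to 6.16) in Zic nuclei and at most 0.728 CPM in those other classes. Of the 14 Gal UMIs in Zic nuclei 9 lay in 1 nucleus, and of the 25 Cartpt UMIs 10 lay in 1 nucleus. Outside suffix 1, Zic nuclei had 2 Gal and 4 Cartpt UMIs. Gal had no UMI in somatostatin-type, parvalbumin-type, neurogliaform-type, subicular or cortical or subtype-less excitatory nuclei. For the 344 somatostatin-type nuclei a count of 0 allows up to 1.30 CPM. Suffix 1 held 87.6% of all Cartpt and 97.4% of all Gal UMIs.

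The undivided neurons, mostly of suffix 1, carried a different set of precursors. Against the inhibitory and excitatory nuclei together, 6 of the 10 genes were at least 2-fold higher and 1 lower, where 16.3% of all 13351 genes counted were at least 2-fold higher and 8.85% lower. The ratios were 57.6 for Gal (41.6 to 81.2), 40.3 for Cartpt (31.9 to 51.3), 29.8 for Tac1 (24.6 to 36.2), 11.7 for Nts (9.59 to 14.4), 11.6 for Penk (9.58 to 14.1) and 4.58 for Pdyn (2.92 to 7.01). Vip was lower, at 1.02 CPM in undivided and 4.78 CPM in the other neurons, a ratio of 0.215 (0.0782 to 0.471). Without suffix 1 few UMIs were left in undivided neurons. There were 6 of Tac1, 5 of Cartpt, 2 of Pdyn, 1 each of Penk and Gal and none of Nts or Vip. Tac1 and Cartpt stayed higher, at ratios of 6.40 (2.30 to 14.4) and 15.9 (4.87 to 40.5). These rest on few nuclei, as 2 of the 6 Tac1 UMIs and 3 of the 5 Cartpt UMIs each lay in 1 nucleus. The intervals of Pdyn (0.456 to 14.5), Penk (0.0212 to 4.78) and Gal (0.425 to 161) spanned 1. Levels in undivided neurons were 59.8 CPM of Tac1, 49.7 of Cartpt, 34.7 of Penk, 33.6 of Gal and 31.8 of Nts. A UMI was seen in 12.8% of them for Tac1, 11.6% for Cartpt, 10.5% for Penk, 9.42% for Gal and 9.03% for Nts, against 0.472 to 0.866% of oligodendrocytes for these 5 genes. The median depth was 6922.5 UMIs, and thinned shares were 1.98 to 4.74%, against 0.2501 to 0.5002% in oligodendrocytes.

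These neurons were not alike among themselves. A sub-cluster of 10 nuclei had Tac1 at 1281 CPM, with a UMI in 90% of nuclei, beside Gad2 and Isl1 at 655 and 417 CPM. In a sub-cluster of 47 nuclei with Gad1, Gad2 and Drd1, Penk was at 175 CPM, Cartpt at 129 CPM and Nts at 93.0 CPM. In a sub-cluster of 30 nuclei with Slc17a6 and Sim1, Cck was at 120.1 CPM and Cartpt at 110.1 CPM, with no Gal or Tac1 UMI. Another of 20 nuclei had Cartpt at 227.2 CPM and Gal at 129 CPM. The largest, of 148 nuclei with Slc17a6 and Sim1, had Tac1 at 113 CPM, and the next, of 142 nuclei, had Cartpt at 132, Gal at 96.7 and Sst at 89.4 CPM. The oxytocin (Oxt), vasopressin (Avp) and thyrotropin-releasing hormone (Trh) precursors, outside the 10, had the 3 highest ratios of the listed genes in the undivided neurons, at 89.3, 78.7 and 35.2 CPM, against 0.851, 0.940 and 0.216 CPM in the other neurons.

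**Figure D3:**
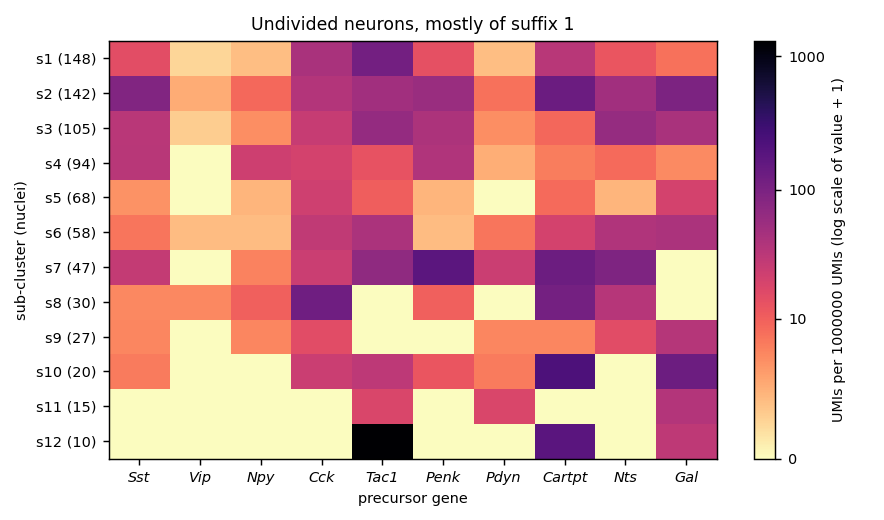
CPM (colour, log scale of value + 1) of the 10 precursor genes (x axis) in 12 sub-clusters of undivided neurons (y axis, with nuclei). Tac1 peaks in s12, Penk in s7 and Cartpt in s10, while Vip is at or near 0 throughout.

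Precursor UMIs in the non-neuronal nuclei were counted by suffix as a possible measure of free RNA. Per 100 nuclei, suffix 1 (907 nuclei) gave 13.1 Cck UMIs, against 9.01 in suffixes 2 to 7 (2543 nuclei). Sst gave 3.20 in suffix 1 and 3.85 in suffixes 2 to 7, Npy 1.32 and 1.38, and Vip 1.10 and 0.826 in the same order. For these 3 the intervals overlap. Nts gave 2.87 in suffix 1 (1.87 to 4.20) and 0.354 in suffixes 2 to 7 (0.162 to 0.672), Penk 2.43 (1.52 to 3.67) and 0.275 (0.111 to 0.567), Cartpt 2.21 (1.35 to 3.41) and 0.0786 (0.00953 to 0.284). Gal gave 2.21 (1.35 to 3.41) in suffix 1 and no UMI in suffixes 2 to 7 (0 to 0.145). Tac1 gave 1.21 (0.605 to 2.17) and 0.433 (0.216 to 0.774), which overlap. Against suffixes 2 to 4 alone, which gave 11.3 Cck UMIs per 100 nuclei (9.79 to 12.9), the interval of Cck in suffix 1 (10.9 to 15.7) overlaps. Penk, Cartpt, Nts and Gal, higher in the glia of suffix 1, were also higher in the undivided neurons than in other neurons. Cck was not, at 32.6 CPM in undivided and 50.9 CPM in the other neurons, a ratio of 0.641 (0.551 to 0.741). Tac1 and Pdyn were higher in the undivided neurons as well, but their intervals in non-neuronal nuclei overlap. Pdyn gave 0.221 UMIs per 100 non-neuronal nuclei in suffix 1 (0.0267 to 0.797) and 0.0786 in suffixes 2 to 7 (0.0095 to 0.284). The source of the UMIs in non-neuronal nuclei was not tested. No non-neuronal nucleus had more than 3 UMIs of any of the 10 genes.

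**Figure D4:**
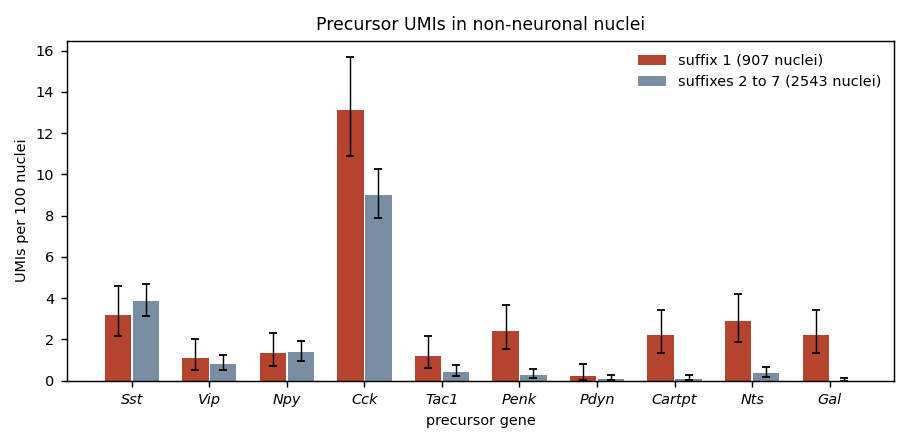
UMIs per 100 non-neuronal nuclei for each precursor gene in suffix 1 (red, left bar of each pair) and suffixes 2 to 7 (blue-grey). Lines are exact 95% Poisson intervals. Penk, Cartpt, Nts and Gal separate, and so does Cck (13.1 against 9.01), though not from suffixes 2 to 4 alone (11.3). Sst, Vip, Npy, Tac1 and Pdyn overlap.

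None of the 8 precursor genes with enough UMIs was at least 2-fold higher in CPM in neurons (inhibitory and excitatory nuclei) than in non-neuronal nuclei, where 18.8% of all genes were. Oligodendrocytes were shallow, at a median of 1683 UMIs, so 1 UMI weighs more there in CPM. Cartpt was lower, at 1.23 CPM in neurons and 3.19 CPM in non-neuronal nuclei, a ratio of 0.386 (0.241 to 0.645), where 21.6% of all genes were at least 2-fold lower. Without suffix 1 Cartpt had too few UMIs to be counted, and Penk had a log2 ratio of 0.69, against -0.49 with suffix 1. Nuclei with 5 or more UMIs of 1 gene were all neuronal or unnamed: 79 for Cck, 45 for Sst, 29 for Tac1, 18 for Vip, 16 each for Cartpt and Gal, 15 for Nts, 14 for Penk and 9 for Npy. Of these, 71 of the 79 for Cck and 27 of the 45 for Sst were in suffix 1.

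Suffix 1 was set against suffixes 2 to 6 within the inhibitory and excitatory divisions and in oligodendrocytes. The make-up of both neuronal divisions differs between suffixes. Zic nuclei were 180 of the 256 inhibitory nuclei in suffix 1, against 396 of 1661 over all suffixes. Dentate granule neurons were 671 of the 1070 excitatory nuclei in suffix 1, against 2432 of 8587 over all suffixes. The neuronal ratios below therefore mix suffix with class. In inhibitory nuclei Vip was 2.63-fold (2.08 to 3.32) and Npy 2.17-fold higher (1.60 to 2.90), where 7.09% of all genes were at least 2-fold higher. In excitatory nuclei Cck was 3.22-fold (3.004 to 3.45), Penk 3.93-fold (2.82 to 5.44), Nts 3.25-fold (2.18 to 4.81) and Npy 2.42-fold higher (1.61 to 3.59), where the share of all genes was 8.1%. Sst in excitatory nuclei had a ratio of 0.881 (0.649 to 1.18). In oligodendrocytes, where 8.33% of all genes were at least 2-fold higher, only Cck had 100 UMIs, at 95.3 CPM in suffix 1 and 48.9 CPM in suffixes 2 to 6, a ratio of 1.95 (1.49 to 2.53). From fewer UMIs, Penk had 14.5 CPM in suffix 1 and 0.600 CPM in suffixes 2 to 6, and Gal was at least 17.3-fold higher, set against 3 UMIs over suffixes 2 to 6. Of the processing and granule genes counted, 4 of 23 were at least 2-fold higher in suffix 1 in inhibitory, 3 of 25 in excitatory and 2 of 16 in oligodendrocyte nuclei, with median log2 ratios of 0.16, -0.10 and -0.05 in that order. Of the 2 in oligodendrocytes, named after their values were seen, Pcsk1n, a convertase inhibitor, was 3.99, 5.37 and 5.65-fold higher in suffix 1 in inhibitory, excitatory and oligodendrocyte nuclei, and Scg2, a granule protein, 3.63, 4.15 and 4.98-fold. No precursor gene was at least 2-fold lower in suffix 1 in these 3 divisions, where 4.26, 8.75 and 6.21% of all genes were lower in inhibitory, excitatory and oligodendrocyte nuclei. The part of Pcsk1n, Scg2 and free RNA in the result was not tested, and suffix 1 cannot be told apart from whatever sample, animal or dissection it stands for.

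**Figure D5:**
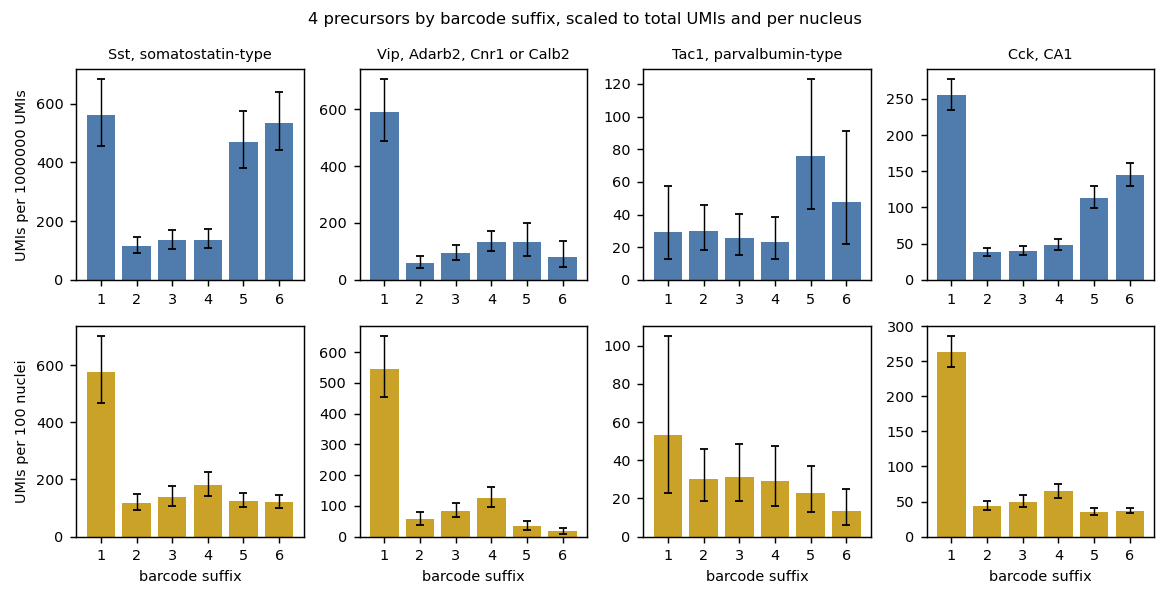
Sst, Vip, Tac1 and Cck, each in the class named above its panel, by barcode suffix (x axis). The upper row is CPM and the lower row UMIs per 100 nuclei, with exact 95% Poisson intervals. Sst and Cck are high in suffixes 1, 5 and 6 in CPM, and in suffix 1 alone per nucleus.

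Some precursors shared nuclei. For each pair, nuclei with a UMI of both were set against the number given by the product of the 2 shares within each suffix. Among inhibitory nuclei 52 had both Sst and Npy, against 28.5 from the product, a ratio of 1.83, and 40 of the 52 were of somatostatin type. Within that type the ratio was 1.16. Vip and Penk shared 15 nuclei, against 2.66, a ratio of 5.63, and all 15 were Adarb2 nuclei with Cnr1 or Calb2, where the ratio was 2.20. Vip and Cck shared 22, against 13.1, but within the Adarb2 class 16, against 19.8. Sst and Vip shared 5, against 19.4. In undivided neurons Sst and Pdyn shared 10 nuclei, against 1.74. None of the 10 genes was seen in 42.1% of undivided neurons, 52.6% of inhibitory, 65.0% of excitatory and 82.8% of oligodendrocyte nuclei.

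Of 26 receptor genes listed, 17 could be counted between inhibitory and excitatory nuclei: 4 were at least 2-fold higher and 7 lower, with a median log2 ratio of -0.60. Of all genes 7.79% were higher and 7.29% lower, with a median of 0.09. Tacr1, the substance P receptor, was highest in neurogliaform-type nuclei at 75.7 CPM, a ratio of 6.10 between inhibitory and excitatory nuclei (5.10 to 7.31). The delta opioid receptor Oprd1 was at 146 CPM in parvalbumin-type nuclei and the mu receptor Oprm1 at 269 CPM in neurogliaform-type and 266 CPM in subicular or cortical nuclei, where Penk read 1.45, 1.24 and 0.368 CPM in that order. The kappa receptor Oprk1 was at 16.1 CPM in somatostatin-type nuclei and 0.182 CPM in dentate granule neurons, which held the most Pdyn UMIs. The Npy receptor Npy1r was at 48.0 CPM in dentate granule neurons and 37.3 CPM in Adarb2 nuclei with Cnr1 or Calb2. Npy2r was at 22.1 CPM in CA2/CA3. Vipr1, a Vip receptor, was at 1.19 CPM in inhibitory and 31.5 CPM in excitatory nuclei, a ratio of 0.0379 (0.0212 to 0.0626). The neurotensin receptor Ntsr2 was at 573 CPM in astrocytes and 33.0 CPM in CA2/CA3, with a ratio of 0.0402 between inhibitory and excitatory nuclei. The somatostatin receptor Sstr4 was at 3.85 CPM in CA1 and Sstr3 at 4.73 CPM in CA2/CA3, their highest named hippocampal classes. The Cck receptor Cckbr was at 15.3 CPM in parvalbumin-type nuclei, and Cckar and Galr3 had no UMI in inhibitory nuclei.

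Of 27 processing and granule genes 25 were counted, with 4 at least 2-fold higher and 4 lower in inhibitory than in excitatory nuclei and a median log2 ratio of 0.24. The amidating enzyme Pam was higher, at 845 CPM in inhibitory and 391 CPM in excitatory nuclei, and the convertase Pcsk2 lower, at 314 CPM in inhibitory and 917 CPM in excitatory nuclei. The convertase Pcsk5 had the lowest ratio of the processing genes, 0.142. Among 38 other precursor genes 8 were counted, with 2 higher and 1 lower. Pnoc, the nociceptin precursor, had a ratio of 36.3 (25.6 to 52.7) and Cort, a somatostatin relative, 30.03 (17.8 to 53.6). Cort was at 19.6 CPM in somatostatin-type and 17.8 CPM in parvalbumin-type nuclei, and Pnoc was highest in neurogliaform-type nuclei at 39.7 CPM.

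The genes whose levels most resembled a precursor over 51 clusters of at least 20 nuclei are given as a description (Pearson r of log2(CPM + 1)). The clusters share depth and suffix, and Crhbp, Htr3a, Adarb2 and Npas1 were among the class markers. For Sst they were Crhbp (0.70), Npy (0.61) and Rbp4 (0.58), and for Vip Htr3a (0.71), Adarb2 (0.51) and Npas1 (0.50). For Npy they were Maf (0.67), Ptprm (0.63) and Arhgef11 (0.62), and for Cck Selenow (0.60), Sh2b1 (0.51) and Tmem144 (0.49). For Tac1 they were Shh (0.72), Vat1 (0.67) and Glra1 (0.65), and for Penk Cisd1 (0.69), Atp6v0c (0.67) and N4bp2 (0.66). For Pdyn they were Ankdd1a (0.83), Usp51 (0.71) and Epor (0.65), and for Nts Arxes2 (0.75), Tpi1 (0.75) and Slc35e2 (0.74). For Cartpt they were Srsf11, Scg2 and Nap1l5 (0.79, 0.79 and 0.78), and for Gal Six3, Tmie and Csta2 (0.74 each).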

How the data were processed

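Nuclei of wild-type mouse hippocampus were counted with 10x Genomics 3' chemistry. Per the submitters' processing notes the tool was Cell Ranger 4.0.0 and the build mm10. The deposited file holds raw UMI counts per gene and barcode, which the authors pooled into 1 matrix. Strand use in counting is not given in the sources used here.

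Barcodes with at least 500 UMIs, 300 genes and at most 5% mitochondrial UMIs were kept (108 removed). Scrublet, at an assumed rate of 0.05, marked 211 doublets, which were left out. It marked under 0.5% in suffixes 2, 5, 6 and 7, where it is not taken to have worked. Nuclei were clustered with scanpy 1.11.5 and leidenalg 0.10.2 on 2103 genes, made up of 2000 variable genes and the class markers. The clustering used 30 components, 15 neighbours and resolution 1. It left out the 10 precursor genes and the listed receptor, processing and granule, and other precursor genes. Inhibitory nuclei and undivided neurons were clustered again. A cluster was named where at least 3 markers were high (0.25 of the maximum and 5% of nuclei). Neuronal clusters of neither division were called undivided where suffix 1 held at least 0.75 of their nuclei, and were otherwise left unnamed.

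UMIs were summed per class and divided by the class total (CPM). Exact Poisson, conditional binomial and Clopper-Pearson intervals at 95% cover counting error only, and nuclei are not replicates. Genes with at least 100 UMIs over both sides were called at 2-fold, and 3 UMIs were the floor for a count of 0. Shares were repeated after thinning each nucleus to 1000 UMIs, which left out 541 of 2540 oligodendrocytes and 4 of 337 Adarb2 nuclei with Cnr1 or Calb2. The ratio step was tested on simulated counts. Alternatives covered cluster resolution, precursor genes in the clustering, UMI minimum, thinning, mean of nuclei, a minimum of 20 UMIs, doublets, and leaving out suffixes or Zic nuclei.

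Named are all 10 precursor genes, their receptors, the listed genes with the 3 highest and 3 lowest ratios, and the 3 genes most like each precursor. The precursor genes and lists were chosen with earlier results of these data known, and the cluster names were built while looking at the clusters and at precursor levels. Promoter windows come from RefSeq on GRCm38.p6, and gene positions from GENCODE on GRCm38.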

Additional observations from a re-analysis of the deposited data

Results flagged for a closer look

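The 108 barcodes removed by the filters held 4 Cck UMIs among 48565 UMIs in all. They were looked at because these barcodes enter no comparison and have no control. Sst had 1 UMI there and the other 8 precursor genes none.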

How the results depend on the processing

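No paired analysis was possible because all samples form 1 group and no column carries a replicate number. Leaving out suffixes 2 to 7 in turn, or the Zic nuclei, was chosen after seeing the data. Precursor genes at least 2-fold higher in inhibitory than in excitatory nuclei numbered 6, against 1 after thinning and 3 with suffixes 2 to 4 only; genes at least 2-fold lower numbered 0, against 1 without suffix 3. The Nts log2 ratio was -0.64 without Zic nuclei, against 2.08 with them. Between neurons and non-neuronal nuclei, 0 were higher, against 1 with the precursor genes and the other listed genes in the clustering. Those at least 2-fold lower numbered 1, against 0 with a minimum of 1000 UMIs, after thinning or without suffix 1. They numbered 2 by the mean of nuclei, with a minimum of 20 UMIs or without suffix 4 or 7. Gene and class combinations numbered 6 among interneurons, against 1 after thinning, 3 with suffixes 2 to 4 and 10 with a minimum of 20 UMIs. They numbered 4 among excitatory classes, against 1 after thinning, 0 without suffix 1 or with suffixes 2 to 4, and 2 without suffix 2. For suffix 1 over suffixes 2 to 6 they numbered 6, against 1 after thinning, 14 with a minimum of 20 UMIs and 2 without suffix 2. Fewer UMIs leave fewer genes counted, by construction; for the other changes the cause was not tested. The median log2 ratio of processing genes was 0.24, against 0.14 after thinning. That of receptors was -0.60, against -0.73 after thinning, -0.76 by the mean of nuclei, -0.18 with a minimum of 20 UMIs, and -0.81, -0.70, -0.73 and -0.47 without suffix 2, 3, 5 and 6. The precursor genes highest in an interneuron class numbered 3, against 5 without suffix 1 or 2 and 6 with suffixes 2 to 4. Of 161 such alternatives 129 stayed within the limits and 32 moved; of 1128 for single genes 1027 stayed, 100 moved and 1 reversed.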

Other observations

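Agrp, the agouti-related peptide precursor, did not vary between classes as the 10 precursor genes did. It read 125 to 155 CPM in the 5 inhibitory classes, 155 to 206 CPM in the excitatory classes, 132 CPM in undivided neurons and 56.4 CPM in oligodendrocytes. It was singled out after its values were seen.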
